A study of Mus musculus with 8 samples.

Results

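Some m6A peaks that were called as 1 continuous stretch in DMSO-treated mouse embryonic stem cells (ESCs) were covered by several separate peaks in Dox-treated cells. A DMSO peak was called split when its exon blocks shared at least 1 base with 2 or more different Dox peaks on the same strand, and those Dox peaks are called its pieces. By this rule 1297 of the 18895 DMSO peaks were split (6.86%), and 2908 of the 13001 Dox peaks were pieces. The members were therefore selected on the overlap of the peak calls, and all numbers of pieces, lengths and gaps are given as descriptions.

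The cells were ESCs of the E14 line in which, by the study's methods, Dox drives a transgene of Dux, a transcription factor of the 2-cell embryo, and a Mervl promoter drives a tdTomato reporter of the 2C-like state. All cells carried both constructs, grew with leukemia inhibitory factor and KnockOut Serum Replacement, and received either DMSO or Dox for 24 h. Fragmented poly(A) RNA was pulled down with an m6A antibody (IP) and sequenced beside input RNA, in 8 libraries that formed 4 groups of 2, and the deposited peaks formed 1 list per treatment. No difference between treatments could be tested for that reason. A culture in which only some cells turn 2C-like gives bulk RNA, where fewer cells with a transcript and less transcript per cell cannot be told apart. The DMSO list had peaks in 19 of 20 pluripotency genes and the Dox list in 18, while of 22 genes of the 2C state the DMSO list had 6 and the Dox list 18. In the whole DMSO list 6087 genes had a peak. The share of all annotated genes with a peak is not given here. A peak over a gene is not its expression, so these counts do not establish the cell type.

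N6-methyladenosine is placed on nascent mRNA by the METTL3-METTL14 methyltransferase, mostly at an adenosine followed by C within DRACH sequences, of which GGAC is the best known form. The marks cluster around stop codons and in long internal exons, and they are read by YTH proteins, some of which recruit the CCR4-NOT deadenylase to the transcript. In MeRIP-seq a peak is a run of short windows in which IP reads exceed input reads, so several neighbouring sites can lie under 1 peak.

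The sequences below show what lay in and beside the gaps between pieces. For each DMSO peak, the middle 25 bases of its longest gap are followed by 25 bases centred on the GGAC of a piece nearest to that gap, 5′ to 3′ on the strand of the peak, with GGAC in capitals (GRCm38). The first pairs come from the peaks with the most pieces or the longest gaps, and the last pairs from 2 transcripts of the m6A machinery itself. The piece windows were picked for holding GGAC, the gap windows were not.
Mki67 gap, chr7:135697415-135697439, minus strand: tacaaagagacgctccaagacaggt
Mki67 piece, chr7:135697805-135697829, minus strand: tccacaaccaGGACatatcataaac
Ahnak gap, chr19:9011764-9011788, plus strand: ttcaagggagaaggccctgaagtag
Ahnak piece, chr19:9011814-9011838, plus strand: tgatgtctcaGGACccaaggtGGAC
Asxl2 gap, chr12:3501150-3501174, plus strand: ggaaacccttgcaaagtaaacagct
Asxl2 piece, chr12:3501491-3501515, plus strand: aacattaaaaGGACccattctgtaa
Malat1 gap, chr19:5802290-5802314, minus strand: ttaaaacgaaggttacctaaataga
Malat1 piece, chr19:5802000-5802024, minus strand: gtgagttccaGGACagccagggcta
Ythdf2 gap, chr4:132204171-132204195, minus strand: ttccatttttgatgacttctcacac
Ythdf2 piece, chr4:132204253-132204277, minus strand: ccaactctagGGACactcaggaagt
Zc3h13 gap, chr14:75330105-75330129, plus strand: cacaggaatctcgttctctcagccc
Zc3h13 piece, chr14:75330267-75330291, plus strand: ccgaaagcgtGGACagctcgagagt

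Gaps could also hold the motif. In Lig1, the ligase that seals nicks in replicated DNA, and in Sf3b2, a subunit of the U2 snRNP, the middle of the longest gap carried GGAC. The same was true of 6 of the 81 gap windows read in the peaks named by the rules given with the methods.
Lig1 gap, chr7:13286629-13286653, plus strand: caactgcagctcccccatGGACatc
Sf3b2 gap, chr19:5274896-5274920, minus strand: cctgaggaattggagttGGACccca

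Most split peaks fell into few pieces. There were 2 pieces in 1059 split peaks (81.6%), 3 in 187, 4 in 38, 5 in 9, 7 in 3 and 11 in 1. The pieces together covered 73.2% of the 699440 exonic bases of the split peaks, the gaps between pieces 13.5%, and the uncovered ends, called margins, 13.3%. The pieces were nearly nested in the DMSO peak, as 2713 of 2908 (93.3%) lay wholly inside it, and the median split peak was covered over 71.4% of its length. In comparison with the 73.2% of all bases, the Dox peak covered 77.8% of the bases of the 9464 DMSO peaks that lay over exactly 1 Dox peak.

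Split peaks were long, which the rule itself favours, because a longer peak has more room for several Dox peaks. Their median exonic length was 450 nt, with quartiles of 300 and 650 nt and a range from 75 to 3550 nt, against a median of 200 nt for DMSO peaks over 1 Dox peak. A piece had a median length of 125 nt, close to the 150 nt of Dox peaks that were the sole partner of a single DMSO peak. The share of overlapped DMSO peaks that were split was 12.1% (Wilson 95% interval 11.5 to 12.7, 1297 of 10761), and it stood at 0.556% below 100 nt, 7.15% at 200 to 299 nt, 26.2% at 400 to 499 nt and 50.2% at 800 to 999 nt. From 1000 nt upward 116 of 242 peaks were split (47.9%).

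The reverse arrangement was rarer. Of the 13001 Dox peaks, 292 lay over 2 or more DMSO peaks (2.25%) and are called joined, which is 2.42% (2.16 to 2.71) of the 12050 that overlapped any. There were thus 4.44 split DMSO peaks for each joined Dox peak. This ratio was 8.38 with the 13001 best-scoring DMSO peaks, 6.94 with pieces joined over 50 bases or fewer, and 2.40 when overlap on either strand was counted. The setting behind 8.38 left out the weakest DMSO peaks and kept all Dox peaks, which gave 1207 split and 144 joined peaks. A joined peak needs 2 DMSO peaks, so this setting lowers their number by construction and does not test the asymmetry. The plot of both shares by length sets peaks of like length side by side, and the split share exceeded the joined share in each of the classes, with intervals that overlapped below 100 nt, and stood at 40.1% (35.7 to 44.6) against 7.28% (4.71 to 11.1) at 600 to 799 nt. The Dox list was the shorter one, and the read depth of the libraries was not analysed here, so that the part of depth in this asymmetry was not tested.

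**Figure D1:**
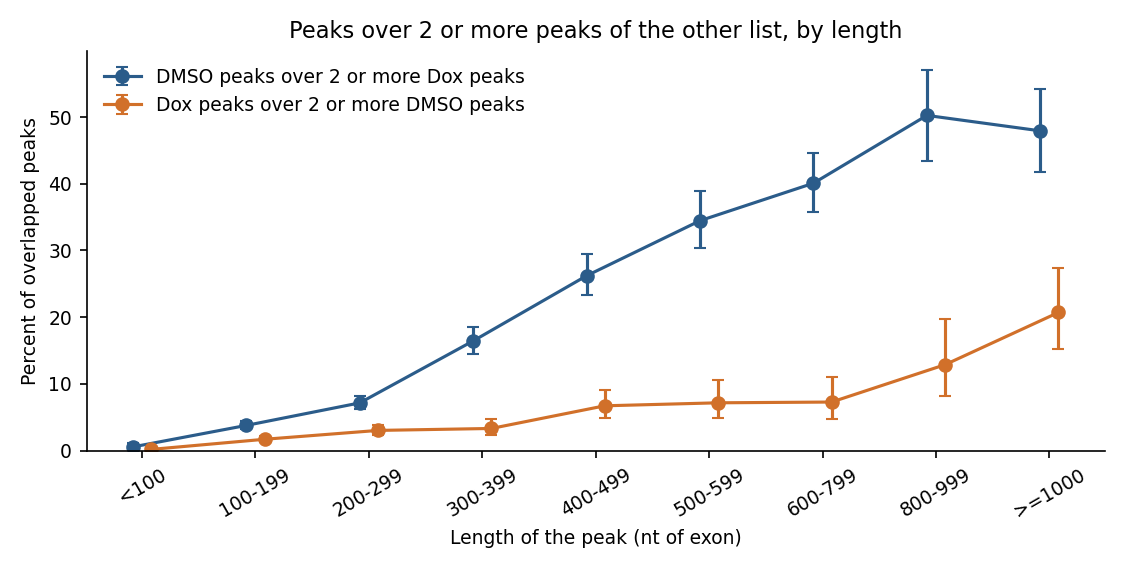
Percent of overlapped peaks that lay over 2 or more peaks of the other list, by exonic length of the peak in nt, with Wilson 95% intervals as bars. The blue points (DMSO peaks) climb from 0.556% to 50.2% and the orange points (Dox peaks) from 0.179% to 20.7%.

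Scores bear on how firmly the pieces were called. The score was read from its values as the authors' −log10 p-value of a peak within its list, and whether it is adjusted is not given. No peak in either list scored below 10. Split DMSO peaks had a median score of 12.1, against 12.2 for those over 1 Dox peak. Within each length class the median score of the split peaks was the lower one, for example 12.2 against 12.9 at 800 to 999 nt. The best piece of a split peak had a median score of 12.05 and the weakest piece 10.8, and in 59.8% of split peaks the weakest piece scored below 11. The weakest of several pieces is low by construction, and over all pieces the median score was 11.3, against 11.7 for the Dox partners of the DMSO peaks over 1 Dox peak. Only 1141 of 13001 Dox peaks scored 15 or more, and when peaks under 15 were left out of both lists, 5 of 570 overlapped DMSO peaks were split (0.877%). That setting also removed most of the split DMSO peaks themselves, whose 90th percentile was a score of 14.6.

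The gaps were short. All 1611 gaps were multiples of 25 nt, as were the lengths of 1296 of the 1297 split peaks, and 806 gaps (50.03%) were exactly 25 nt long. Gaps of 50 nt numbered 314 and those of 75 nt 181, while 310 (19.2%) reached 100 nt or more, up to 600 nt. In 617 split peaks (47.6%) no gap was longer than 25 nt, so that these peaks were divided by the shortest gaps seen. In the joined Dox peaks 181 of 322 gaps (56.2%) were 25 nt long. Taking pieces as 1 where 25 or fewer uncovered bases lay between them left 680 split peaks, and with 50 or fewer bases 430 were left. As to the threshold of the rule, the smallest overlap of a split peak with a piece was 25 nt, seen in 583 split peaks, and of the 9464 peaks over 1 Dox peak, 67 had another Dox peak within 25 bases of their span.

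**Figure D2:**
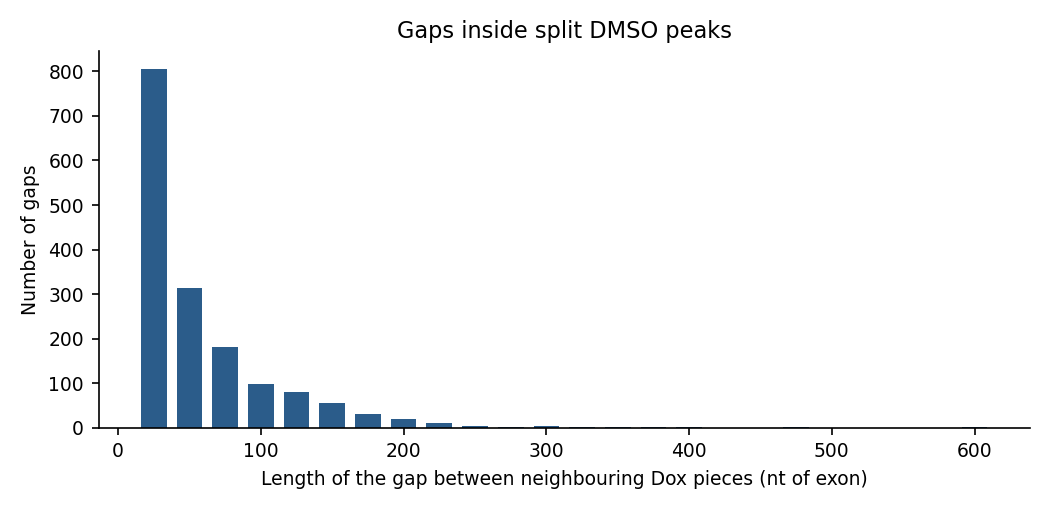
Number of gaps between neighbouring Dox pieces of the same DMSO peak, by exonic gap length in nt. The bars stand for counts of gaps at each multiple of 25 nt and fall from 806 at 25 nt and 314 at 50 nt to a thin tail that ends at 600 nt.

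Gaps had no fixed place in the peak. With 0 as the 5′ end and 1 as the 3′ end of the DMSO peak, the middle of a gap lay at a median of 0.50, with quartiles of 0.35 and 0.68. By definition a gap lies between pieces, so it cannot reach an end of the peak. Among the split peaks with 2 pieces, the 5′ piece was the longer one in 465, the 3′ piece in 480, and 114 had pieces of equal length. The longer piece of a pair had a median of 200 nt and the shorter one 50 nt, an order that is set by construction. Of the 1059 shorter pieces, 416 were 25 nt long. The longer piece had the higher score in 654 of the 945 unequal pairs (69.2%).

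Pooled over all split peaks, the m6A core motif was denser in pieces than in gaps, and the rule made no use of sequence. GGAC occurred 6.29 times per 1000 nt in pieces (exact Poisson 95% interval 6.07 to 6.51) and 3.95 times in gaps (3.56 to 4.37). Margins had 4.64 (4.22 to 5.10). The flanks had 3.16 (2.91 to 3.44). They were the exonic bases within 100 nt on each side of the peak that no peak of either list covered. Flanks were read only for peaks that lay without interruption on the transcript with the longest coding sequence. Of the 25-nt windows in pieces, 14.8% held GGAC, against 9.45% of those in gaps. GTCC, the reverse complement of GGAC, was found 3.46 times per 1000 nt in pieces and 3.87 times in gaps, with overlapping intervals of 3.30 to 3.62 and 3.48 to 4.28. The wider motif DRACH (D being A, G or T, R being A or G and H being A, C or T), which takes in most GGAC sites, occurred 24.5 times in pieces and 20.6 times in gaps. All motifs were read on the strand of the peak, and a match is a sequence feature, not a measured site. The GC content was 53.3% in pieces and 50.9% in gaps, and its part in the motif densities was not tested.

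DMSO peaks over a single Dox peak showed the like order. In them the stretch under the Dox peak had 6.76 GGAC per 1000 nt (6.64 to 6.88), the uncovered margins 4.74 (4.56 to 4.94) and the flanks 3.58. Joined Dox peaks, read in the same way with DMSO peaks as pieces, had 7.01 (6.52 to 7.52) in pieces and 4.96 (3.96 to 6.14) in gaps. The density in the gaps was lowest where the gap was long, with 4.71 (3.81 to 5.76) in gaps of 25 nt, 4.24 (3.52 to 5.05) in gaps of 50 to 75 nt and 3.42 (2.90 to 4.01) in gaps of 100 nt or more, and the intervals of the first and last overlapped slightly. Beside gaps of 25 nt, the adjoining 25 bases of the pieces had 5.16 (4.22 to 6.25) and 5.91 (4.89 to 7.07) on the sides of the gap. Both intervals overlapped that of the gaps of 25 nt, so the pooled contrast was not resolved there. Short pieces were not poorer in the motif than long ones, as pieces of 25 nt had 6.48 (5.35 to 7.77) and pieces of 100 nt or more 6.27 (6.04 to 6.50).

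**Figure D3:**
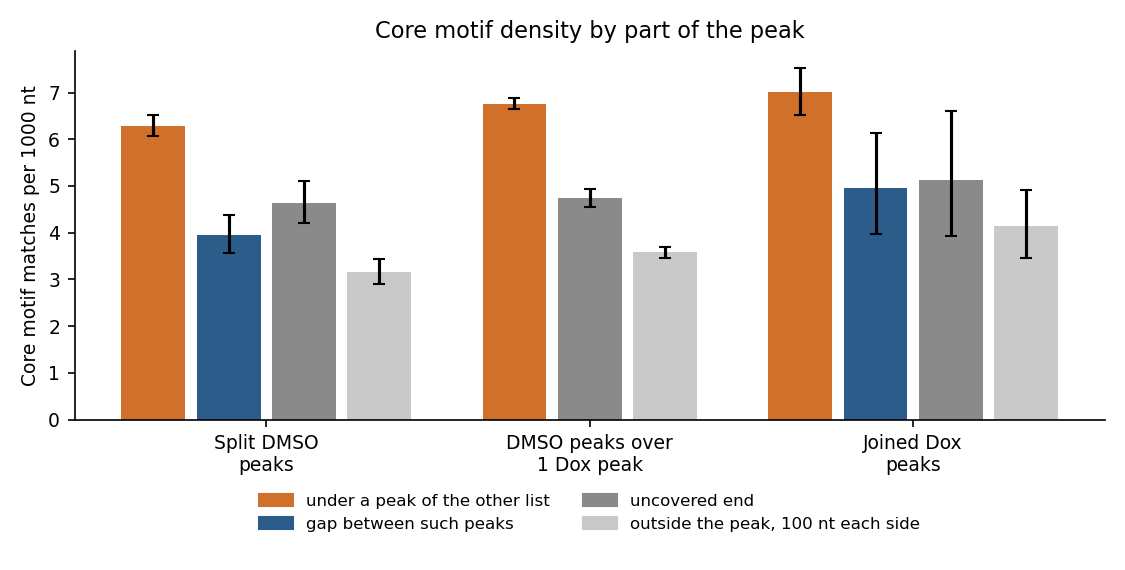
Matches of the core motif per 1000 nt in the stretches under peaks of the other list (orange), in the gaps between them (blue), in uncovered ends (dark grey) and in peak-free exonic bases within 100 nt outside the peak (light grey), with exact Poisson 95% intervals as bars. In split DMSO peaks the pieces stand at 6.29 and the gaps at 3.95.

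Peak by peak the pattern was a majority, not a rule. GGAC density was higher in the pieces than in the gaps of 842 split peaks (64.9%), lower in 229 and equal in 226, of which 169 held no GGAC in any part. Pieces held 73.2% of the bases and gaps 13.5%, so many gaps lack GGAC by their length alone. The unequal lengths favour a higher density in pieces even where the densities are equal. These counts therefore do not measure the difference in density. A gap with GGAC occurred in 290 split peaks (22.4%). Among the pieces, 1508 of 2908 (51.9%) contained GGAC, and in 325 split peaks (25.1%) each piece did.

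The position along the mRNA was taken from the transcript with the longest coding sequence, which placed 1255 of the 1297 split peaks. Their middle lay in the coding sequence in 75.7% (73.2 to 78.0), in the 3′ UTR in 21.8% and in the 5′ UTR in 2.47%. For DMSO peaks over 1 Dox peak the coding share was 70.8%, or 75.5% when these peaks were weighted to the lengths of the split peaks. Exons of 1000 nt or more held the middle of 57.5% of split peaks, and of 57.2% of the others after the same weighting. Split peaks in 2 or more exon blocks made up 37.4% (34.8 to 40.1), against 39.9% of the others after weighting.

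Split peaks and other DMSO peaks were also compared at the stop codon, without a test. The middle lay within 200 nt of the stop codon in 19.9% of split peaks (17.8 to 22.2) and in 27.3% (26.4 to 28.3) of the DMSO peaks over 1 Dox peak, which was 26.4% after weighting by length. The stop codon itself lay inside 292 split peaks (23.3%, 21.0 to 25.7), against 19.9% (19.1 to 20.8) of the others as they stood and 31.7% once weighted to the same lengths, so that the direction turned with the weighting. For joined Dox peaks this share was 28.0% (23.0 to 33.6), with 26.8% for other Dox peaks of like length. Where a split peak held the stop codon, the codon was in a piece in 223 cases, in a gap in 31 and in a margin in 38. Intervals count peaks as independent, which peaks of the same gene are not.

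**Figure D4:**
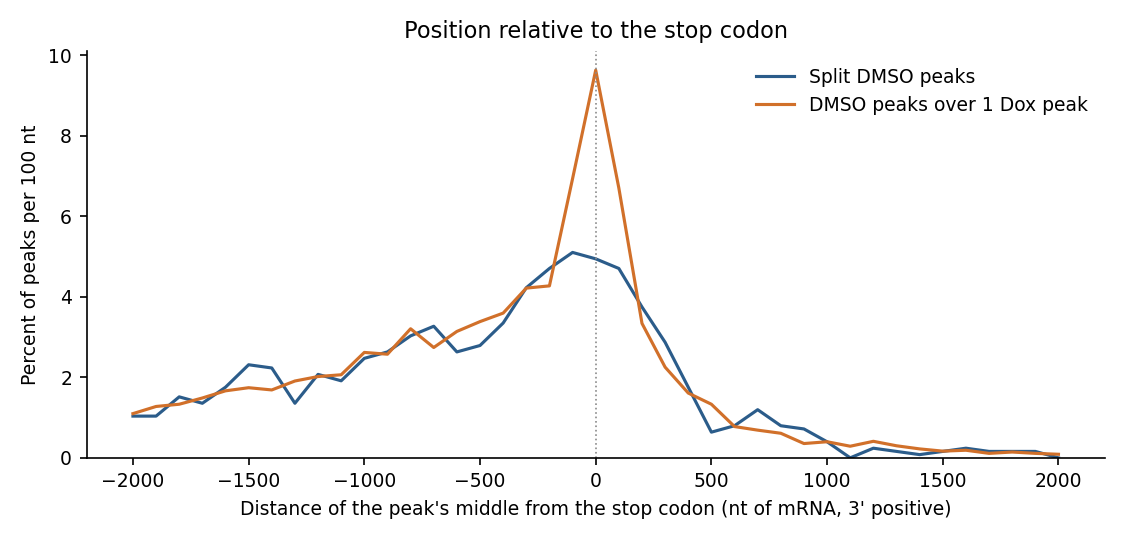
Percent of peaks per 100 nt of mRNA by the distance of the peak's middle from the stop codon in nt, with the 3′ side positive, for split DMSO peaks (blue) and DMSO peaks over 1 Dox peak (orange). The orange line has a sharp maximum at the stop codon where the blue line is lower, and within 200 nt lie 19.9% of split peaks and 27.3% of the others.

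The split peaks belonged to 1058 genes, 22.7% (21.5 to 23.9) of the 4662 genes in which a Dox peak overlapped a DMSO peak. There was 1 split peak in 881 genes, and there were 2 in 136, 3 in 30, 4 in 7, 5 in 3 and 10 in 1. A protein-coding gene was assigned to 1284 of the 1297. The share of genes with a split peak was 4.52% where the longest overlapped DMSO peak was 100 to 199 nt and 64.4% where it reached 1000 nt. Gene counts below are therefore set beside the share among all genes with longest peaks of the same length classes. That share does not account for the number of overlapped peaks per gene, and each further peak is another chance of a split. Over all genes 1296 of 10760 overlapped peaks were split.

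Ahnak, which encodes a giant scaffold protein built of repeats, had the most split peaks. Of its 30 DMSO peaks, 21 met a Dox peak and 10 were split, into 35 pieces. All 10 lay in its last exon, which is 17498 nt long, and 9 of them lay wholly in the coding sequence. The peak at chr19:9010814-9013013 was 2200 nt long with a score of 13.3 and had 7 pieces, of 375, 500, 325, 100, 425, 25 and 50 nt from 5′ to 3′, with scores of 13.8, 17.6, 11.8, 10.7, 11.4, 10.1 and 11.98. None of its gaps was longer than 75 nt. Several gaps tied at that length, and some of them held GGAC, unlike the one printed above. The 25 bases printed above for its piece recur unchanged at chr19:9010074-9010098, in another split peak of Ahnak. Of the 35 pieces, 11 matched another place in the genome over at least 90% of their length with at least 98% identity, so that reads of the repeats can be shared between them.

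Mki67, the gene of the proliferation marker Ki-67, held the peak with the most pieces. This peak, at chr7:135695990-135698439 on the minus strand, was 2450 nt long, had a score of 11.9 and lay in the coding part of exon 12, an exon of 6836 nt. Its 11 pieces covered 1100 nt, and 900 nt lay in gaps. The best piece, 175 nt long, scored 15.4, and the other pieces scored between 10.2 and 12.7. The longest gap was 375 nt and held 3 GGAC outside the bases printed above, so that a gap without a call was not a gap without the motif. Mki67 had 22 pieces in 4 split peaks, of which 3 pieces had a near-identical locus.

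The remaining peaks with most pieces were another Ahnak peak with 7, a Mmrn2 peak with 7 and, of the 9 peaks with 5, the one with the highest score, in Asxl2. In Mmrn2, which encodes an endothelial matrix glycoprotein, the pieces covered 675 of 1625 nt and all scored between 10.2 and 11.4. In Asxl2, a chromatin regulator linked to Polycomb, a gap of 600 nt with 4 GGAC divided a 5′ piece of 75 nt from 4 pieces downstream, and no piece scored above 11.6. The Ahnak peak, of 2525 nt, differed from both in that its pieces scored between 10.3 and 16.6.

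**Figure D5:**
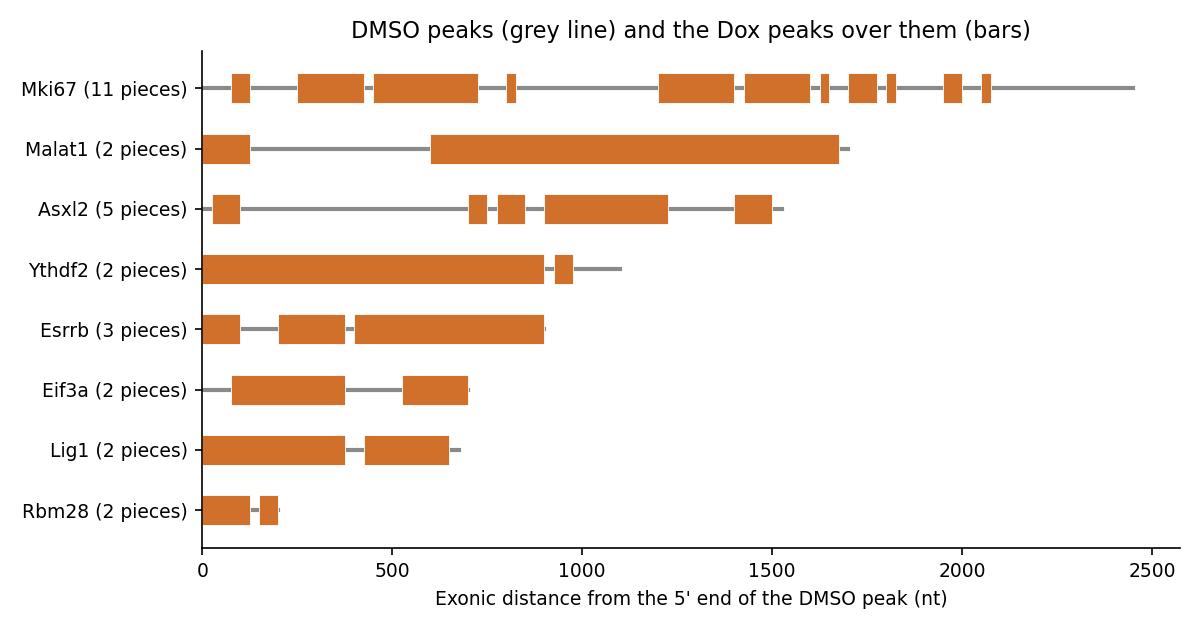
Exonic maps of 8 split DMSO peaks, drawn as grey lines in nt from their 5′ end, with the Dox pieces as orange bars. Mki67 shows 11 pieces over 2450 nt, Malat1 an empty stretch of 475 nt after a short 5′ piece, and Rbm28 a single gap of 25 nt.

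Malat1, a long noncoding RNA of nuclear speckles, had the second longest gap. Its DMSO peak at chr19:5800965-5802664 on the minus strand had a score of 18.3 and was 1700 nt long. The 5′ piece of 125 nt scored 45.0, the highest score of any piece, and the 3′ piece of 1075 nt scored 11.9. Between them lay 475 nt without GGAC. Gaps of 400 nt in Sema4d, a membrane-bound semaphorin, and of 350 nt in Luzp1, a leucine zipper protein, came next, apart from that of Mki67.

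The best-scoring split peaks were divided by gaps of 25 to 150 nt. Lig1 had the highest score, 34.6, for a peak of 675 nt in 8 exon blocks that was divided by 50 nt into pieces with scores of 16.9 and 14.0. Rbm28, a nucleolar RNA-binding protein, scored 31.4 over 200 nt, with a gap of 25 nt and pieces of 15.2 and 10.5. Eif3a, the largest subunit of the translation initiation factor eIF3, scored 25.6 with a gap of 150 nt and pieces of 16.8 and 15.0. A Sf3b2 peak scored 23.9 with a gap of 75 nt, and Mybl2, a transcription factor of cell cycle genes, scored 23.8 with a gap of 100 nt and pieces of 20.6 and 16.4. In Eif3a and Mybl2 both pieces thus scored 15 or more. Scores depend on depth and were not compared between the lists.

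After Ahnak, the genes with the most split peaks were Macf1, Fat1 and Bptf with 5 each, followed by 7 genes with 4, of which Pcnt is described here because its best split peak had the highest score. Macf1 encodes a spectraplakin that links microtubules to actin, and 5 of its 15 overlapped DMSO peaks were split, into 10 pieces. In Fat1, an atypical cadherin, the split peaks ranged from 300 to 1825 nt, and the longest was covered over 1800 nt with 1 gap of 25 nt. Bptf, the largest subunit of the NURF chromatin remodeller, had 5 of 9 overlapped peaks split. In Pcnt, the pericentrin scaffold of the centrosome, 4 of 10 were split.

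Transcripts of the m6A pathway were among the members. Of 16 genes for writers, readers and erasers with an overlapped DMSO peak, 5 had a split peak (31.2%), where all genes with longest peaks of the same classes gave 40.9%. The reader Ythdf2 had a peak of 1100 nt with a score of 12.1, with the stop codon inside, that met pieces scoring 17.3 and 10.8 on both sides of a 25-nt gap. Zc3h13, a subunit of the writer complex, had 4 pieces over 1500 nt and a gap of 300 nt. The reader Ythdf3 had 2 pieces that covered 100 of 275 nt, Igf2bp2 had 2 pieces that covered 100 of 125 nt in the 3′ UTR, and the demethylase Alkbh5 was the fifth. In the CCR4-NOT and mRNA decay list, 7 of 21 genes had a split peak (33.3%, against 26.6%), among them Cnot1, the scaffold of the deadenylase, with a gap of 75 nt, and the decay factors Smg6 and Upf2.

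Of 18 pluripotency genes with an overlapped peak, 8 had a split peak (44.4%, against 43.4% for genes with longest peaks of like length), namely Esrrb, Klf4, Klf5, Nr5a2, Sall4, Tfcp2l1, Utf1 and Zfp42. The peak of the orphan receptor gene Esrrb lay in the 3′ UTR, was 900 nt long and had 3 pieces scoring between 11.5 and 11.7. That of Klf5, a Krüppel-like factor, spanned 1125 nt with 3 pieces over 1025 nt. Of 6 genes of the 2C state with an overlapped DMSO peak none was split, where like peak lengths gave 19.2%, and 6 genes are too few to read from. Signalling genes of the ESC state had 6 of 29 (20.7%, against 32.4%), including Lifr, the receptor of leukemia inhibitory factor, whose peak of 1050 nt held the stop codon and had a gap of 25 nt.

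Several of the lists held chromatin genes. The list of nuclear corepressors and large regulators had 18 of 24 genes with a split peak (75%, against 47.2%), among them the corepressor gene Ncor1, the cohesin subunit gene Smc3, the cohesin loader gene Nipbl and the deacetylase gene Hdac1. Polycomb and DNA methylation genes had 9 of 17 (52.9%, against 40.0%), with Jarid2, a subunit of Polycomb repressive complex 2, Dnmt1, the maintenance methyltransferase, Tet2, which oxidises 5-methylcytosine, and Kdm2b. Histone methyltransferases and demethylases had 14 of 28 (50%, against 35.8%) and chromatin remodellers 13 of 29 (44.8%, against 40.0%). By peaks, the split ones were 23 of 104 overlapped for corepressors and large regulators and 11 of 60 for Polycomb and DNA methylation. They were 22 of 141 for histone methyltransferases and demethylases and 24 of 168 for remodellers. Over all genes they were 1296 of 10760. None of these counts by peaks was matched on peak length, and they are given for these lists only. The Jarid2 peak was 1525 nt long with 1500 nt covered, and that of Tet2 was 2175 nt with 2075 nt covered by 3 pieces, so both were nearly complete in the Dox list.

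Genes of DNA replication and repair had 12 of 28 with a split peak (42.9%, against 23.9%), including Lig1, the sliding clamp gene Pcna, the mismatch repair gene Msh6 and Rif1. The Pcna peak had a near-identical locus and its split is uncertain for that reason. Genes of the cell cycle, centrosome and mitosis had 10 of 24 (41.7%, against 33.4%), among them Cenpf and the kinesin gene Kif11. Splicing factors had 11 of 37 (29.7%, against 33.3%), translation factors 6 of 21 (28.6%, against 28.3%) and the ubiquitin system 6 of 23 (26.1%, against 32.6%). Of 21 genes of cytosolic ribosomal proteins, whose mRNAs are short, only Rpl23 had a split peak (4.76%, against 9.95%), and that peak too had a near-identical locus. These lists describe the members, and no difference between a list and all genes was tested. The shares set beside them were matched on the longest peak and not on the number of peaks per gene.

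Few split peaks had a near-identical locus elsewhere in the genome. Such a locus was found for 55 split peaks (4.24%, 3.27 to 5.48), for 727 of the 9464 DMSO peaks over 1 Dox peak (7.68%) and for 195 of the pieces (6.71%). With all such peaks left out of both lists, 1187 DMSO peaks were split, 12.02% of the overlapped ones.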

How the data were processed

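MeRIP-seq libraries from IP and input poly(A) RNA of E14 ESCs (2 per group) were processed by the authors, who filtered reads with fastp 0.19.4, aligned them to mm10 with HISAT2 2.2.1 and called peaks of IP over input with exomePeak2. How exomePeak2 was set and how it combined replicates is not given in the sources used here. The deposited score of each peak was read from its values as a −log10 p-value. It was used within each list, and 2 alternatives set the same minimum score in both.

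Exon blocks of the lists were intersected by strand in Python 3.11.15 (numpy 2.4.6, scipy 1.17.1). Uncovered runs between pieces were gaps, and those at the ends margins. Genes and transcripts were those of GENCODE M21, and sequences those of the GRCm38 genome. Another locus was counted where blastn 2.17.0 matched at least 90% of a peak elsewhere at 98% identity or more. Weighting to the lengths of the split peaks used classes with edges at 100, 200, 300, 400, 500, 600, 800 and 1000 nt. Figures were drawn with matplotlib 3.10.9.

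The peaks named were the 5 with most pieces, the 5 best scoring, the 5 with the longest gap, those of the 5 genes with most split peaks, and for 15 gene lists up to 4 genes each. Members and lists were chosen with earlier results of these data known. Depth per library is unknown here, and 95% intervals (Wilson for shares, exact Poisson for densities) cover counting of peaks or sites only. The overlap and gap steps were tested on simulated peaks. Alternatives covered the overlap, score, list size, joining of pieces, introns, strand, near-identical loci, motif, transcript and stop codon window.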

Additional observations from a re-analysis of the deposited data

How the results depend on the processing

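Of 54 recomputed values, 30 stayed within 1.5 times the count or within the interval of the value reported. These 30 include the values for at least 25 shared bases. That setting changed nothing, as the smallest overlap of a split peak with a piece was already 25 nt. A score of at least 15 in both lists left 5 split peaks (0.877% of overlapped peaks) with 10 pieces and a median gap of 125 nt, and turned the difference in GGAC density between pieces and gaps to -2.24 per 1000 nt (-9.66 to 5.19), over those 5 peaks. A score of at least 20 left 0 split peaks (0% of 194 overlapped peaks) and 0 pieces, so no ratio, gap or density could be given. With pieces joined over 50 bases or fewer there were 430 split peaks (3.996%), 1079 pieces, a ratio of split to joined peaks of 6.94 and a median gap of 100 nt. Joined over 25 bases, a setting chosen after seeing the data, there were 680 (6.32%), 1639 pieces and a ratio of 5.31. The 13001 best DMSO peaks gave 13.1% split and a ratio of 8.38, and overlap on either strand 15.0% and 2.40. The density difference was 2.34 as reported, 3.96 for DRACH and -0.41 (-0.84 to 0.02) for GTCC, and a window of 400 nt around the stop codon held 32.9% of split peaks. Shares with the stop codon inside and in coding sequence stayed within their intervals with the longest transcript. The cause of these changes was not tested beyond what each setting removes. No paired analysis was possible because the libraries of a treatment were merged into 1 list of peaks, for which reason no replicate could be left out either.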
